A study of Mus musculus with 2 samples.

Results

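The genes described here are 10 genes of megakaryocytes and platelets, Itga2b, Pf4, Gp1bb, Gp9, Gp5, Selp, Vwf, Zfpm1, Nfe2 and Clec1b, chosen by name from the 22020 gene symbols of 1 expression table. All 10 were found. Where a symbol had several transcripts, the one with the highest mean over both libraries was used. RNA was sequenced from LSK cells, sorted by their lack of lineage markers and their surface c-Kit and Sca-1, a fraction of blood-forming tissue that holds stem cells and early multipotent progenitors. The cells came from Utx/p53 DKO mice, which lack both Utx (Kdm6a, an X-linked histone H3 lysine 27 demethylase) and p53, and from p53 KO mice, which lack p53 and keep Utx. Both groups were 8 weeks old and of the C57BL/6 strain. The sources used here name no tissue, sex, number of pooled mice, deleted exons or promoter of any Cre. There was 1 library per genotype, so no difference below has a replicate check, no test was made, and every value describes these 2 libraries.

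Megakaryocytes are the large marrow cells that shed platelets. They arise from progenitors that also give red cells, and a part of the stem cell pool itself carries megakaryocyte transcripts. Platelets stick to damaged vessels through the glycoprotein Ib-IX-V complex, which binds von Willebrand factor, they aggregate through the integrin alpha IIb beta 3, which binds fibrinogen, and they release stored proteins from their alpha granules. The genes for these proteins are known to be driven by GATA1 with its cofactor FOG1 (Zfpm1), by ETS and RUNX factors and, late in maturation, by NF-E2, whose larger subunit is Nfe2.

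Kdm6a, the gene deleted in the DKO mice only, was at 1.26 RPKM (reads per length of transcript, scaled to the library's read total; 132 reads) in the DKO library and at 5.32 RPKM (479 reads) in the p53 KO library. The libraries held 19926294 reads (DKO) and 17088105 reads (p53 KO). Trp53 was at 12.9 RPKM in the DKO library and 19.4 RPKM in the p53 KO library. Of the genes of the sort gate, Kit was at 16 RPKM in the DKO and 64.2 RPKM in the p53 KO library, while Ly6a, which encodes Sca-1, was at 281 RPKM in the DKO and 255 RPKM in the p53 KO library. The neutrophil lineage genes, among them Elane, Lcn2, Ctsg and Prtn3, summed to 41052 RPKM in the DKO and 4134 RPKM in the p53 KO library. Elane alone was at 26714 RPKM in the DKO and 1649 RPKM in the p53 KO library. Of the 13 genes of this list 9 (69.2%) were at least 2-fold higher on the scale given below, beside 6.6% of all measured genes. Ltf was the 1 gene (7.69%) at least 2-fold lower, beside 13.5%, at 5.42 RPKM in the DKO and 32.9 RPKM in the p53 KO library. The part of the neutrophil lineage genes in the differences below was not tested.

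The 10 genes did not move as 1 group between the genotypes. Itga2b and Gp9 were each more than 7 times lower in the DKO library, Selp was 5.60 times higher, and Pf4 and Nfe2, although clearly expressed, differed by less than 2-fold. The other 5 genes (Gp1bb, Gp5, Vwf, Zfpm1 and Clec1b) averaged under 1 RPKM over both libraries and were not called. Calls were made at 2-fold or more on the log2(RPKM + 1) scale, which understates the change of low genes, and only for genes averaging 1 RPKM or more over both libraries (measured genes). Of the 5 members that reached this mean, 1 was higher, 2 were lower and 2 lay within 2-fold. Over all 11356 measured genes, 6.6% were called higher and 13.5% lower, or 9.63% and 8.76% relative to the median of all genes, where the members' calls were the same 1 and 2. The median log2 difference of the 5 measured members, DKO minus p53 KO, was 0.30, beside -0.24 over all measured genes. Over all 10 members it was -0.00083, with 5 above and 5 below 0. In bulk RNA, fewer cells of a type and less RNA per cell cannot be told apart.

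**Figure D1:**
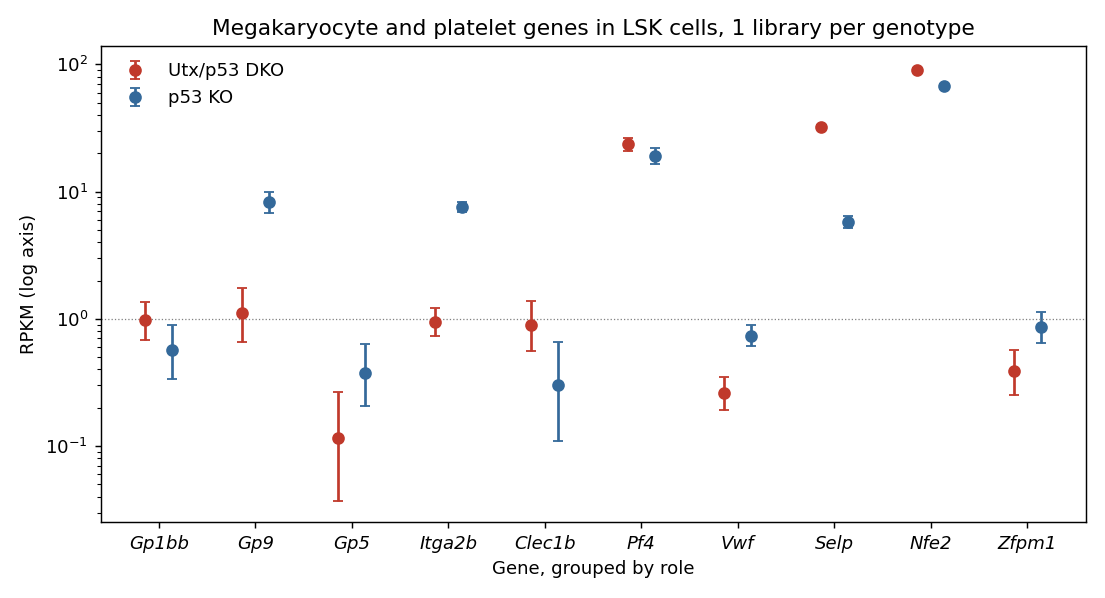
RPKM (log axis) of the 10 genes in the Utx/p53 DKO library (red) and the p53 KO library (blue), 1 library each; bars are exact Poisson 95% intervals and cover counting error only, and the dotted line marks 1 RPKM. Nfe2 was the highest in both libraries, Gp9 and Itga2b were near 1 RPKM in the DKO library against 8.23 and 7.54 RPKM in the p53 KO library, and Selp was at 32.2 against 5.75 RPKM.

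Within each library the levels per length fell into a high and a low range, and the order differed. In the DKO library Nfe2 led, at 91.1 RPKM, followed by Selp at 32.2 and Pf4 at 23.6 RPKM, and no other member exceeded 1.11 RPKM. Gp9, Gp1bb, Itga2b and Clec1b, between 0.901 and 1.11 RPKM there, did not differ beyond their counting intervals. In the p53 KO library Nfe2 again led, at 67.3 RPKM, followed by Pf4 at 19 RPKM, Gp9 at 8.23, Itga2b at 7.54 and Selp at 5.75 RPKM. The intervals of Gp9 and Itga2b overlapped there, whereas that of Selp (5.16 to 6.4 RPKM) lay below that of Itga2b (6.86 to 8.28 RPKM). The lowest member was Gp5 in the DKO library, at 0.115 RPKM, and Clec1b in the p53 KO library, at 0.3 RPKM. Together the 10 genes held 0.0324% of the summed RPKM of the DKO library and 0.0307% of that of the p53 KO library.

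The promoters of the genes that differed most are shown first, with that of Pf4, a gene of the same program that differed little. They are the 250 bases before the annotated start, from RefSeq (build GRCm38.p6; the authors' reads were placed on mm9), written in the direction of the gene. Capitals mark matches, on either strand, to an ETS motif (AGGAAG, or CGGAAG) or a RUNX motif (TGTGGT), and a match on the other strand reads as the reverse complement. The GATA motif searched was AGATAA, its form with another first base TGATAA, and the forms with a last G, AGATAG as well as TGATAG.
Itga2b, chr11:102469884-102470133, strand -: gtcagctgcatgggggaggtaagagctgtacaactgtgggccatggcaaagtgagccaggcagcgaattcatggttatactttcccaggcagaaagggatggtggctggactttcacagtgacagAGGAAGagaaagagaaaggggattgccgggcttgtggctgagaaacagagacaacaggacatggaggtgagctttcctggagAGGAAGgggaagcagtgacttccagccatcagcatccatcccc
Gp9, chr6:87777820-87778069, strand +: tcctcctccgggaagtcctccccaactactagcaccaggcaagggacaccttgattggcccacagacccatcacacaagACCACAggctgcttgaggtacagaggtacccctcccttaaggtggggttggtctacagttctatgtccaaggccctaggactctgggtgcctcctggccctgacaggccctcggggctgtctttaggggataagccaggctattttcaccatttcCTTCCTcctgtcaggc
Selp, chr1:164115014-164115263, strand +: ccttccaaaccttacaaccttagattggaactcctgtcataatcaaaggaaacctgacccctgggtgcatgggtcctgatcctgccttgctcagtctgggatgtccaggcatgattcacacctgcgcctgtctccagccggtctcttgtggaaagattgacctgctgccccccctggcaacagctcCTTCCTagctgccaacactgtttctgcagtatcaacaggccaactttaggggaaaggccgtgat
Pf4, chr5:90772185-90772434, strand +: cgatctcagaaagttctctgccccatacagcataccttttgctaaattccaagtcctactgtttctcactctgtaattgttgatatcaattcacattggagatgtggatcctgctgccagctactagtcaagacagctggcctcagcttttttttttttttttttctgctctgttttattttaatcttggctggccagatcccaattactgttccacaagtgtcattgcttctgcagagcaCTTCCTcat

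Itga2b, Gp9, Selp and Pf4 thus all held an ETS match before the start. Itga2b had ETS matches beginning 125 and 43 bases before the start, Gp9 had one 16 bases before, and Pf4 had one 9 bases before. Selp had one 64 bases before, on the strand opposite to the gene, and a further one from 19 bases after the start. In Gp9 a RUNX match began 171 bases before the start. Pf4 held a GATA match from 36 bases after the start, which is not printed above, while Itga2b, Gp9 and Selp held none in the window of 250 bases before to 50 bases after the start. Over the 8 members with a promoter in the table (Vwf and Nfe2 had no entry), 7 held an ETS match, against 46.5% of all 32851 promoters, and 4 held a GATA match, against 29.8%. RUNX was matched in 1 of the 8 (16.8% of all promoters), the GC box GGGCGG in 2 (35.7%) and the core TGAGTCA, its own motif read from the other strand being TGACTCA, bound by NF-E2 and AP-1, in 0 (5.2%). The genes lower and higher in the DKO library were not separated by these matches. A match is a description of letters, not a site of binding.

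**Figure D2:**
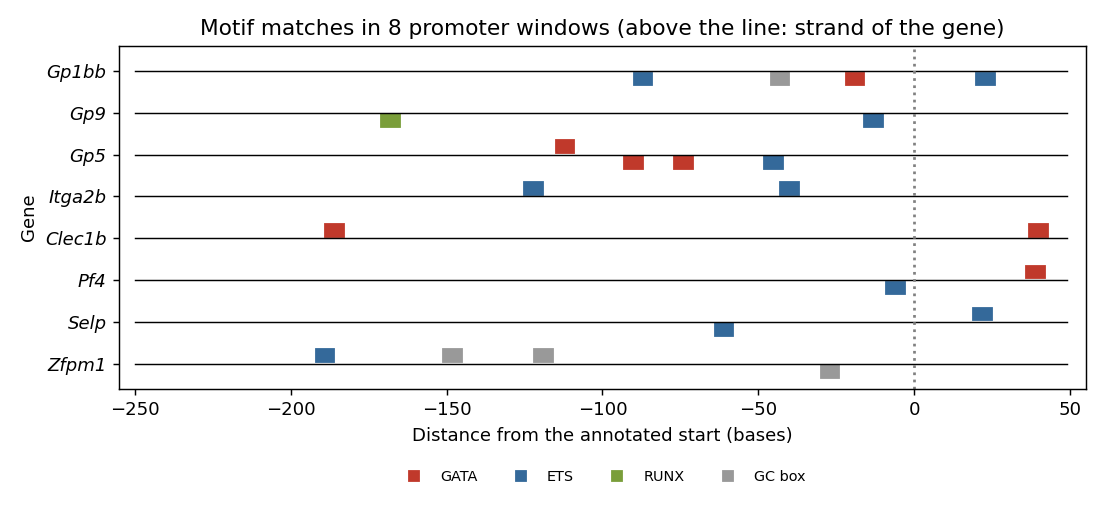
Matches to the GATA (red), ETS (blue), RUNX (green) and GC box (grey) motifs in the promoter windows of 8 members, by distance in bases from the annotated start (dotted line); boxes above a line are on the gene's strand and boxes below on the other. ETS matches stand in 7 of the 8 windows and GATA matches in 4, those of Gp1bb, Gp5, Clec1b and Pf4.

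The subunits of the von Willebrand factor receptor were the first group. Gp9, the glycoprotein IX subunit, which the complex needs to reach the surface, had 18 reads (1.11 RPKM) in the DKO library and 114 reads (8.23 RPKM) in the p53 KO library. It was thus 7.39-fold lower in the DKO library (95% interval 4.47 to 12.9, from exact Clopper-Pearson bounds on the reads, as below), with a log2(RPKM + 1) difference of -2.13. Of 11356 measured genes it had the 157th lowest difference. Gp5, the glycoprotein V subunit, had 5 reads (0.115 RPKM) in the DKO and 14 reads (0.374 RPKM) in the p53 KO library, a ratio of 0.306 (95% interval 0.0863 to 0.900). Gp1ba, the large subunit that carries the binding site for von Willebrand factor, had 25 reads (0.460 RPKM) in the DKO and 45 reads (0.965 RPKM) in the p53 KO library, a ratio of 0.476 (0.280 to 0.794). So Gp9 was the best represented subunit in the p53 KO library, at 8.52 times the RPKM of Gp1ba, and at 2.42 times in the DKO library.

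Gp1bb, the subunit linked to Gp1ba by a disulphide bond, went the other way, but its reads cannot be assigned. It had 36 reads (0.978 RPKM) in the DKO and 18 reads (0.570 RPKM) in the p53 KO library, a ratio of 1.72 (95% interval 0.949 to 3.21), and both of its transcripts in the table had these counts. In the GRCm38 annotation 91.1% of its exon bases are also exon bases of Sept5, a septin gene on the same strand. Sept5 had 51 reads (1.20 RPKM) in the DKO and 26 reads (0.715 RPKM) in the p53 KO library, a ratio of 1.68 (1.03 to 2.81). The Gp1bb values may therefore belong in part or wholly to Sept5.

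The fibrinogen receptor showed opposite differences in its chains. Itga2b, the integrin alpha IIb chain, known as the surface marker CD41 and present on platelets, megakaryocytes and part of the early progenitors of the mouse, had 65 reads (0.949 RPKM) in the DKO library and 443 reads (7.54 RPKM) in the p53 KO library. It was 7.95-fold lower in the DKO library (95% interval 6.11 to 10.5), a log2 difference of -2.13, the 153rd lowest of all measured genes. Itgb3, its beta 3 partner, had 313 reads (2.72 RPKM) in the DKO and 148 reads (1.5 RPKM) in the p53 KO library, a ratio of 1.81 (1.49 to 2.22), which is under 2-fold. Within a library the RPKM of Itga2b was 0.349 times that of Itgb3 in DKO and 5.03 times in p53 KO, a shift of 14.4-fold that does not depend on how the libraries are scaled. Beta 3 also pairs with the alpha v chain in other cells.

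Clec1b, the platelet receptor CLEC-2 for podoplanin, also found on some myeloid cells of the mouse, was near the limit of detection. It had 21 reads (0.901 RPKM) in the DKO and 6 reads (0.3 RPKM) in the p53 KO library, a ratio of 3.00 with a wide interval (1.17 to 9.09). Its 3 transcripts had between 12 and 21 reads in the DKO and 5 to 6 reads in the p53 KO library. A few of its exon bases, 3.61%, are shared with Clec9a, which was at 0.796 RPKM in the DKO and 0.873 RPKM in the p53 KO library. Clec7a, the beta-glucan receptor Dectin-1 of myeloid cells in the same gene cluster, was called higher, at 27.5 RPKM in the DKO and 5.83 RPKM in the p53 KO library, and so was Clec12a, an inhibitory myeloid receptor, at 82.2 RPKM in the DKO and 39.4 RPKM in the p53 KO library. Clec1a, another receptor gene of the cluster, was at 1.01 RPKM in the DKO and 1.97 RPKM in the p53 KO library. Of the proteins that carry the CLEC-2 signal, the adaptor Lcp2 (SLP-76) was at 39.5 RPKM in the DKO and 22.1 RPKM in the p53 KO library, and the phospholipase Plcg2 at 14.2 RPKM in the DKO and 17.3 RPKM in the p53 KO library, both within 2-fold. Pdpn, the ligand, had 0 reads in the DKO and 7 reads in the p53 KO library, where a count of 0 allows up to 3 reads.

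**Figure D3:**
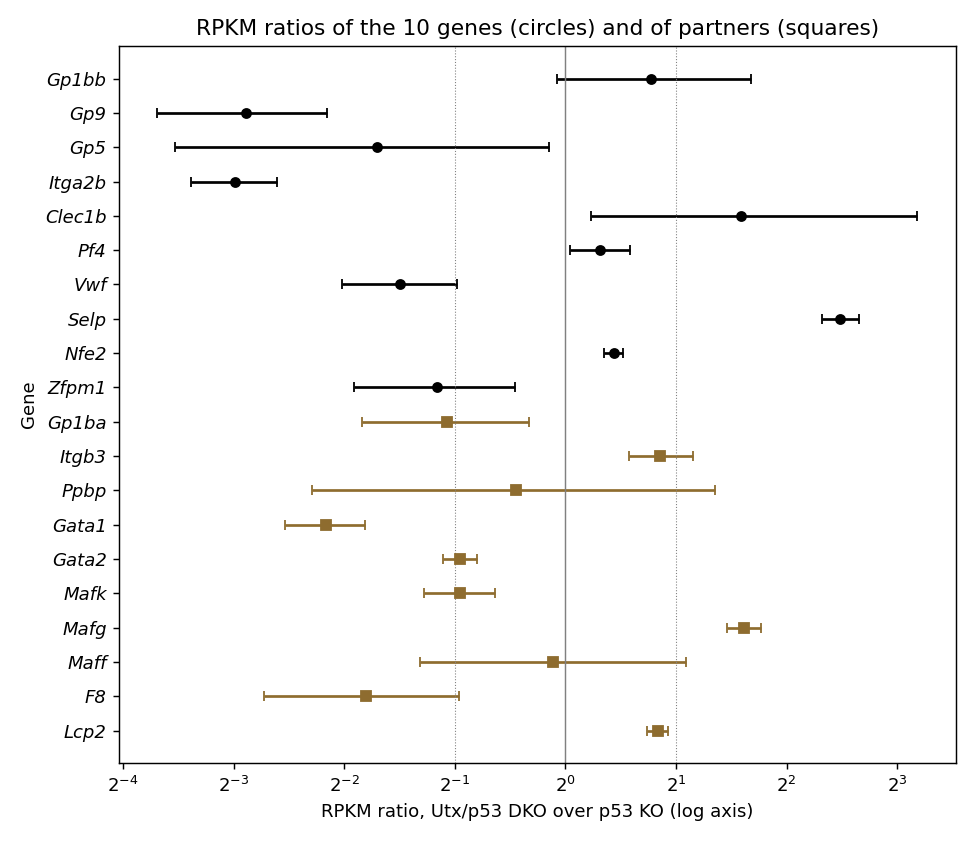
RPKM ratio, Utx/p53 DKO over p53 KO (log axis), of the 10 genes (black circles) and of 10 partner genes (brown squares), with exact 95% intervals for counting error only; the solid line marks 1 and the dotted lines 2-fold. Itga2b and Gp9 lie near 0.13, beside Gata1 at 0.222, and Selp at 5.60 lies beyond every partner shown.

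Among the alpha granule proteins, P-selectin and Pf4 were plainly expressed and von Willebrand factor was not. Selp, the adhesion receptor that platelets and endothelial cells move from storage granules to their surface, had 2206 reads (32.2 RPKM) in the DKO library and 338 reads (5.75 RPKM) in the p53 KO library. It was 5.60-fold higher in the DKO library (95% interval 4.99 to 6.29), a log2 difference of 2.30, the 163rd highest of all measured genes. Genes on the opposite strand are annotated over 9.93% and 4.21% of its exon bases, and no source used here says whether reads were counted by strand. Set against Itga2b in the same library, its RPKM was 33.9 times that of Itga2b in DKO and 0.763 times in p53 KO. Selplg, its ligand on leukocytes, was at 157 RPKM in the DKO and 128 RPKM in the p53 KO library.

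Of the other genes at the Selp locus F5 and Sele were also called higher. F5, coagulation factor V, which platelets store and which lies next to Selp, was called higher, with 449 reads (3.04 RPKM) in the DKO and 91 reads (0.719 RPKM) in the p53 KO library, a ratio of 4.23 (95% interval 3.37 to 5.36). Sele, endothelial E-selectin, had 124 reads (2.14 RPKM) in the DKO and 11 reads (0.221 RPKM) in the p53 KO library, a ratio of 9.67 (5.22 to 19.9).

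Vwf, the multimeric plasma and granule protein that tethers platelets, was low in both libraries. It had 46 reads (0.262 RPKM) in the DKO and 111 reads (0.737 RPKM) in the p53 KO library, a ratio of 0.355 (95% interval 0.246 to 0.505). F8, the clotting factor that it carries, had 16 reads in the DKO and 48 reads in the p53 KO library, a ratio of 0.286 (0.152 to 0.512). Adamts13, the protease that trims it, had 0 reads in the DKO and 9 reads in the p53 KO library. Vwf and Selp, which share storage granules in endothelial cells, thus lay on opposite sides of 1.

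Endothelial cells also use Selp and Vwf, and their markers went both ways. Of 23 endothelial genes 10 reached a mean of 1 RPKM, of which 3 were called higher (30%) and 6 lower (60%). Over all measured genes the shares were 6.6% higher and 13.5% lower. Flt1, a VEGF receptor, was at 13.1 RPKM in the DKO and 1.1 RPKM in the p53 KO library. Egfl7 was at 8.49 RPKM in the DKO and 64.7 RPKM in the p53 KO library, Esam at 3.79 RPKM in the DKO and 16.6 RPKM in the p53 KO library, and Emcn at 2.65 RPKM in the DKO and 10.4 RPKM in the p53 KO library. Cdh5 and Kdr, named after their values were seen, were at 0.151 and 0.166 RPKM in the DKO library. In the p53 KO library Cdh5 was at 0.352 and Kdr at 0.462 RPKM. Pecam1, also named after its value was seen, was called higher, at 49.4 RPKM in the DKO and 16.1 RPKM in the p53 KO library. Icam2, named likewise, was within 2-fold, at 65 RPKM in the DKO and 51.6 RPKM in the p53 KO library. In the DKO library 1 and in the p53 KO library 3 of the 23 genes were listed at 0. The list summed to 153 RPKM in the DKO and 180 RPKM in the p53 KO library, and its part in the Selp and Vwf differences was not tested.

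Pf4, platelet factor 4 or CXCL4, a chemokine that is among the most abundant proteins of the alpha granule, had 277 reads (23.6 RPKM) in the DKO and 191 reads (19 RPKM) in the p53 KO library. Its ratio was 1.24 (95% interval 1.03 to 1.5), and its sign depended on the scaling, with a log2 difference of 0.30 as deposited and -0.06 after scaling to equal sums. Ppbp, the neighbouring platelet chemokine gene, had 6 reads (0.279 RPKM) in the DKO and 7 reads (0.379 RPKM) in the p53 KO library. The RPKM of Pf4 was thus 84.8 times that of Ppbp in the DKO and 50.1 times in the p53 KO library. Cxcl5, the next gene of the cluster, was listed at 0 in both.

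Some other genes typical of mature megakaryocytes and platelets, picked after their values were seen, were scarce like Ppbp, while others were not. Tubb1, the platelet beta tubulin, had 6 reads in the DKO and 4 reads in the p53 KO library. Gp6, the collagen receptor, had 0 reads in the DKO and 5 reads in the p53 KO library, and Treml1, a receptor of alpha granules, had 1 read in the DKO and 34 in the p53 KO library, a ratio of 0.0252 (95% interval 0.000621 to 0.150). Not scarce in the p53 KO library were the receptor gene F2rl3 (635 reads, 21.1 RPKM) and the granule gene Mmrn1 (686 reads, 8.66 RPKM). In the DKO library F2rl3 had 94 reads (2.68 RPKM) and Mmrn1 186 reads (2.01 RPKM).

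The transcription regulators among the 10 genes were far apart in level. Nfe2, the p45 subunit of NF-E2, needed for platelet release and also used in erythroid and other myeloid cells, had 3028 reads (91.1 RPKM) in the DKO library and 1919 reads (67.3 RPKM) in the p53 KO library. Its ratio was 1.35 (95% interval 1.28 to 1.43), with a log2 difference of 0.43 that ranged between 0.06 and 1.03 over the 8 planned settings. Of the small Maf proteins with which it binds DNA, Mafg was called higher, at 49.8 RPKM in the DKO and 16.3 RPKM in the p53 KO library, a ratio of 3.06 (2.76 to 3.41). Mafk was at 2.33 RPKM in the DKO and 4.52 RPKM in the p53 KO library, a ratio of 0.515 (0.412 to 0.643), and Maff was at 0.390 RPKM in the DKO and 0.423 RPKM in the p53 KO library. Within a library the RPKM of Nfe2 was 1.83 times that of Mafg in the DKO and 4.14 times in the p53 KO library.

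Zfpm1, or FOG1, the zinc finger cofactor without which mouse megakaryocytes do not form, had 26 reads (0.385 RPKM) in the DKO and 50 reads (0.864 RPKM) in the p53 KO library, a ratio of 0.446 (95% interval 0.266 to 0.730). Gata1, the factor that it binds in megakaryocytes and red cells, was 4.50-fold lower (3.52 to 5.79), at 2.31 RPKM in the DKO and 10.4 RPKM in the p53 KO library. Gata2, its relative in earlier progenitors, was at 8.62 RPKM in the DKO and 16.7 RPKM in the p53 KO library, a ratio of 0.516 (0.464 to 0.574) and within 2-fold on the log2(RPKM + 1) scale. Zc3h18, a neighbour of Zfpm1, was at 8.83 RPKM in the DKO and 12.2 RPKM in the p53 KO library. Copz1, on the chromosome of Nfe2, was at 224 RPKM in the DKO and 189 RPKM in the p53 KO library.

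The expressed genes flanking Itga2b and Gp9, named for their position and not by the rule, were within 2-fold. Gpatch8, next to Itga2b, was at 16.2 RPKM in the DKO and 27.2 RPKM in the p53 KO library. Rab43, next to Gp9, was at 3.47 RPKM in the DKO and 5.41 RPKM in the p53 KO library. At these loci the member differed by more than its neighbour, while at the Selp locus F5, a gap of 1812 bases away, was called in the same direction as Selp.

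On the RPKM scale the counting intervals of 5 members (Itga2b, Gp9, Gp5, Vwf and Zfpm1) lay below a ratio of 1, those of 4 (Pf4, Selp, Nfe2 and Clec1b) above it, and that of Gp1bb included it. With the libraries scaled to equal sums only Selp lay above 1, and with the authors' gfold constants Gp5 and Zfpm1 included 1. Itga2b, Gp9 and Vwf lay below 1 and Selp above 1 under all 4 scalings compared. Of those the called genes were Itga2b, Gp9 and Selp, whose direction held in the 8 planned settings computed for single genes, with log2 differences between -2.86 and -1.08 for Itga2b, -2.78 and -1.11 for Gp9, and 1.79 and 2.88 for Selp. In the authors' deposited table, the GFOLD value, a log2 fold change shrunk towards 0, was 2.89 for Selp, -1.95 for Itga2b and -1.45 for Gp9. The authors' deposited table gives a GFOLD value of 0.94 for Nfe2, 0.60 for Pf4, 0.42 for Gp1bb, 0.38 for Clec1b, -0.31 for Vwf and 0 for Gp5 and Zfpm1.

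**Figure D4:**
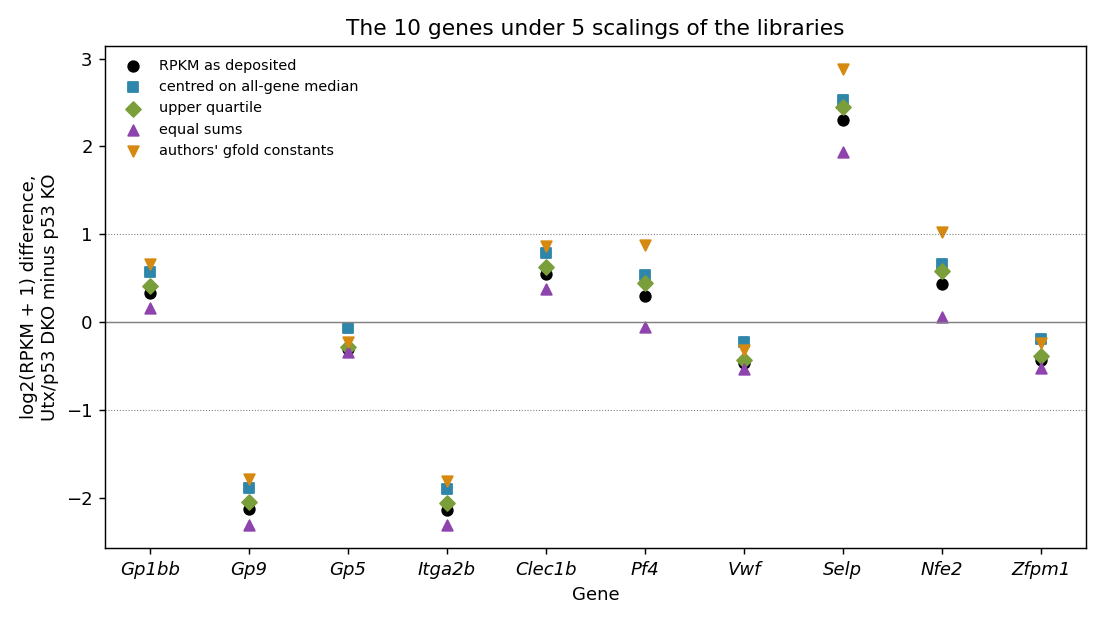
log2(RPKM + 1) difference, Utx/p53 DKO minus p53 KO, of the 10 genes under 5 scalings of the libraries (symbols); the solid line marks 0 and the dotted lines 2-fold. Itga2b, Gp9 and Selp stay beyond 2-fold under all 5, Nfe2 passes 2-fold only with the authors' gfold constants (1.03), and Pf4 is below 0 with equal sums (-0.06).

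Beyond the 10 genes, 107 of 109 further genes of 5 lists were found, and 85 were measured genes. Of these, 12 were called higher (14.1%), 18 lower (21.2%) and 55 lay within 2-fold, with a median log2 difference of -0.18. Over all measured genes 6.6% were called higher and 13.5% lower, with a median of -0.24. Scaling moved the balance of calls in the lists and over all genes alike. With the authors' gfold constants it was 20 higher and 10 lower in the lists, and 1873 and 712 over all genes. Relative to the all-gene median it was 14 higher and 13 lower in the lists, and 1094 and 995 over all genes. With equal sums it was 9 higher and 22 lower in the lists, and 498 and 2709 over all genes. With a pseudocount of 5 it was 10 higher and 9 lower in the lists, and 426 and 476 over all genes. Of the members, 2 were higher and 2 lower with the gfold constants.

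Receptors of the platelet surface held more of the lower calls than any other of the 5 lists. Of 18 measured, 3 were higher (16.7%) and 8 lower (44.4%), with a median of -0.62. Of all measured genes 6.6% were higher and 13.5% lower. F2rl3, the thrombin receptor PAR4, was 7.88-fold lower (95% interval 6.33 to 9.89), at 2.68 RPKM in the DKO and 21.1 RPKM in the p53 KO library. Pear1, a platelet contact receptor, was at 3.24 RPKM in the DKO and 12.4 RPKM in the p53 KO library. Ptgir, the prostacyclin receptor, which restrains platelets and is also used by myeloid cells, was higher, at 9.12 RPKM in the DKO and 1.67 RPKM in the p53 KO library.

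Granule genes leaned the other way, with 5 higher (33.3%) and 2 lower (13.3%) of 15 measured and a median of 0.22. The shares over all measured genes were 6.6% higher and 13.5% lower. F13a1, the coagulation factor XIII A chain, which monocytes also make, was at 381 RPKM in the DKO and 34.7 RPKM in the p53 KO library. Fn1, fibronectin, was at 19.4 RPKM in the DKO and 3 RPKM in the p53 KO library, and Srgn, the proteoglycan serglycin of platelet and myeloid granules, was at 2194 RPKM in the DKO and 643 RPKM in the p53 KO library. Angpt1, a ligand of the receptor Tek that platelets and stem cells make, was 5.65-fold lower (95% interval 5.25 to 6.09), at 10.5 RPKM in the DKO and 59.5 RPKM in the p53 KO library. Neutrophil lineage genes, whose granules share several of these proteins, were higher in 9 (69.2%) and lower in 1 (7.69%) of 13 measured. Their part in the granule list was not tested.

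Signalling genes were mostly within 2-fold: 20 of 23 measured, with 1 higher (4.35%), 2 lower (8.7%) and a median of -0.17. These shares were near those of all measured genes, 6.6% higher and 13.5% lower. Ptgs1, the cyclooxygenase of platelets, was at 51.9 RPKM in the DKO and 16.6 RPKM in the p53 KO library, whereas Tbxas1, the thromboxane synthase that uses its product, was at 4.90 RPKM in the DKO and 21.2 RPKM in the p53 KO library. Lat, an adaptor of platelets and T cells, was at 7.40 RPKM in the DKO and 26 RPKM in the p53 KO library.

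Of 11 cytoskeletal genes measured, 1 was higher (9.09%) and 2 were lower (18.2%), with a median of -0.0019. These shares were near those of all measured genes, 6.6% and 13.5%. Tmsb4x, the actin-binding thymosin beta 4, was at 5980 RPKM in the DKO and 1151 RPKM in the p53 KO library. Actn1, an actinin mutated in inherited low platelet counts, was at 0.832 RPKM in the DKO and 3.04 RPKM in the p53 KO library, and Tpm4, the platelet tropomyosin, was at 22.4 RPKM in the DKO and 46.9 RPKM in the p53 KO library. Srf, a factor of actin genes, was at 5.46 RPKM in the DKO and 2.85 RPKM in the p53 KO library, within 2-fold.

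Among 18 measured transcription factors 2 were higher (11.1%) and 4 lower (22.2%), with a median of -0.42. Over all measured genes the shares were 6.6% and 13.5%. Meis1, which is also a stem cell factor, was the lowest, at 15.7 RPKM in the DKO and 134 RPKM in the p53 KO library, and Erg was at 5.08 RPKM in the DKO and 15.9 RPKM in the p53 KO library. The other calls were Gata1 and Mafg, given above, Gfi1b, a repressor needed for megakaryocyte and red cell maturation, lower at 3.20 RPKM in the DKO and 7.91 RPKM in the p53 KO library, and Runx1, higher at 20.8 RPKM in the DKO and 8.57 RPKM in the p53 KO library.

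**Figure D5:**
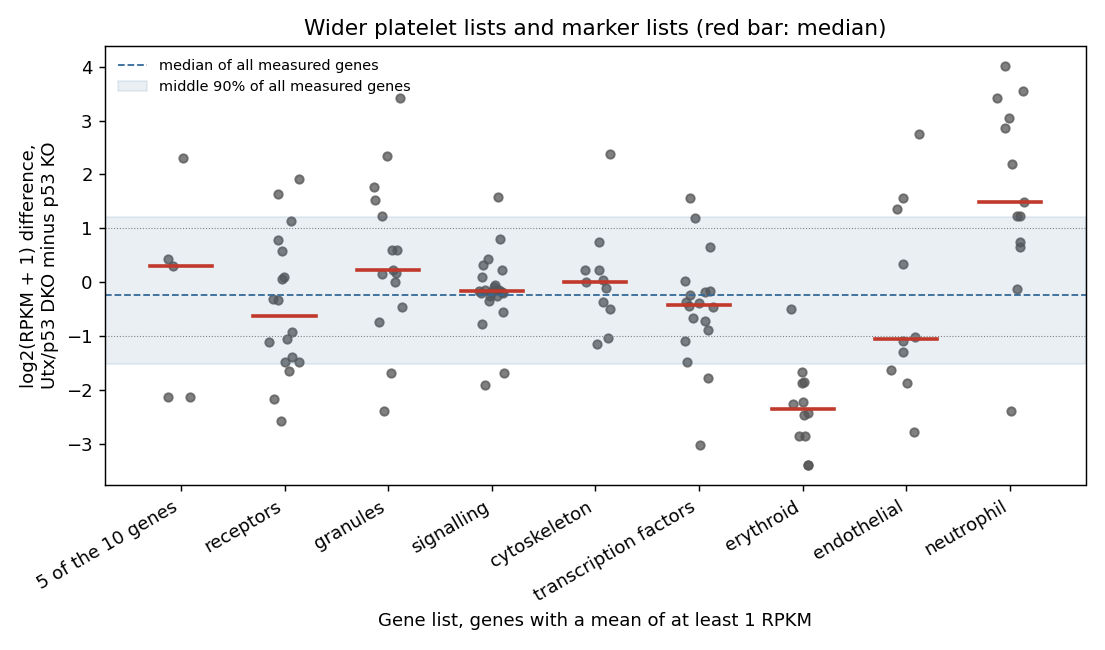
log2(RPKM + 1) difference, Utx/p53 DKO minus p53 KO, of the measured genes in each list (grey points; red bar, median), with the median (dashed) and the middle 90% (band) of all 11356 measured genes; dotted lines mark 2-fold. The 5 measured members span -2.13 to 2.30, the erythroid genes lie nearly all below -1 (median -2.35), and the neutrophil genes lie mostly above (median 1.48).

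The measured red cell genes, which share GATA1 and FOG1 with megakaryocytes, differed in 1 direction where the measured members did not. Of 12 measured erythroid genes 11 were called lower (91.7%) and 0 higher, with a median of -2.35. Over all measured genes 13.5% were called lower and 6.6% higher. The alpha globins Hba-a1 and Hba-a2 were at 26.7 and 26.5 RPKM in the DKO and at 290.4 and 289 RPKM in the p53 KO library, and of the beta chains Hbb-b2 was at 44.9 and Hbb-b1 at 43.9 RPKM in the DKO and at 332 and 324 RPKM in the p53 KO library. The globin pairs are near-identical copies with nearly the same reads. Hba-a1 and Hba-a2 had 297 and 297 reads in the DKO and 2774 and 2776 in the p53 KO library. Hbb-b1 and Hbb-b2 had 548 and 546 reads in the DKO and 3468 and 3458 in the p53 KO library. The same reads may have been counted for both copies of a pair, so their calls may not be separate measurements. Itga2b and Gp9 lay near the erythroid median, and Pf4, Nfe2 and Selp did not; that difference was not tested.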

How the data were processed

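The data are 1 Utx/p53 DKO and 1 p53 KO RNA-seq library of LSK cells; the labels give the genotypes. Per the labels' protocols, cDNA was made from oligo-dT selected RNA by the SMART method and then amplified, which can distort low values. TopHat2 2.1.0, bcl2fastq 1.8.4 and the mm9 build are listed in the submitters' processing notes. Per the file headers, gfold 1.1.4 made the table of 28344 transcripts, with the library of the p53 KO cells first and normalization constants of 1 (DKO) and 1.30144 (p53 KO). The authors deposited RPKM values, scaled by the read totals, log2 fold changes, both plain and shrunken (GFOLD), and an empirical q-value that was at 1 throughout. The gfold and RPKM scales are 0.60 apart in log2 units. No source used here says how reads that map to several genes, or to either strand, were counted.

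Whole reads were recovered with Python 3.11.15 and numpy by finding the transcript length, up to 30000 bases, at which both RPKM values are whole reads within 1 unit of the last printed digit and match the authors' log2 fold change within 1e-05. A single length resulted in 94.4% of the 24644 transcripts that had reads, and in all 10 members. On simulated data with known reads, 87.8% of 600 transcripts gave 1 length, and 100% of these were correct. Ratio intervals are exact (Clopper-Pearson) and level intervals Poisson, both at 95%, with a floor of 3 reads for 0. PCR reads are not independent molecules, so these cover counting error only. Genes were compared on log2(RPKM + 1) with a mean of at least 1 RPKM. No test was made with 1 library per genotype.

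The members and lists were chosen with earlier results of these data known. Named were the 10 members, their partners and neighbours, and up to 4 genes per list with the largest absolute difference; further genes are marked or are calls that a count of 5 or fewer refers to. Some genes that this rule selects are not reported here. Syk, Bin2 and Ly6g of the lists were not found by symbol and were not analysed here. Overlaps and neighbours came from GENCODE M21 and promoters from RefSeq, both on GRCm38. Alternatives were other pseudocounts, filters, scalings, folds and transcript choices.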

Additional observations from a re-analysis of the deposited data

How the results depend on the processing

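The differences of Itga2b, Gp9 and Selp kept their direction in the 8 planned settings computed for single genes (pseudocounts, scalings and transcript choices). With a mean of at least 5 RPKM required, 0 members were called lower, so the calls of Itga2b and Gp9 were lost, because both average under 5 RPKM. With the authors' gfold constants 2 members were at least 2-fold higher (Selp and Nfe2). The median of the measured members was -0.057 with equal sums, 0.88 with the gfold constants and -0.00083 with no filter, when all 10 are measured. In the wider lists the gfold constants gave 20 higher and 10 lower genes, the 3-fold rule 7 and 9, and a pseudocount of 5 gave 9 lower. The gfold constants moved the median of all genes by 0.52, equal sums by -0.31, centring by 0.24 and upper-quartile scaling by 0.13 on the log2 scale, and of all genes 1873 were then higher and 712 lower, 498 and 2709, 1094 and 995, and 949 and 1251, against 750 and 1528 as deposited. Leaving out Gp1bb, an alternative chosen after seeing the data, could move no count, since it averages under 1 RPKM and entered none. No paired analysis was possible because each genotype has 1 library. Gp5, Clec1b, Gp1bb and Zfpm1 rest on at most 50 reads in either library, so differences in them of the size seen for Pf4 were not detectable at this depth.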
